A study of Mus musculus with 15 samples.

Results

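The 40 genes described here encode the RNA polymerase I transcription machinery and the nucleolar proteins that process and assemble ribosomal RNA. They were listed by name and function, with earlier results of these data known, from the 23128 genes kept from the count table, and all 40 were measured in every library. RNA sequencing of polyA RNA was used to compare Phf6-deleted with control C57BL/6 mouse foetuses. The E15.5 cerebral cortex was represented by 3 Phf6 +/Y controls (replicates 1, 2 and 3 of litters 3, 2 and 1) and 5 Phf6 -/Y samples (replicate 1 of litter 3, replicates 2 and 3 of litter 2, replicates 4 and 5 of litter 1), in which the deletion was carried in the germline. Cortical neurons were isolated at E16.5 and kept in culture for about a day. They comprised 3 Phf6 +/Y NesCre T/+ controls (replicates 1 to 3 of litters 4 to 6) and 4 Phf6 lox/Y NesCre T/+ cultures (replicate 1 of litter 7, replicates 2 to 4 of litters 4 to 6). The NesCre transgene, which deletes loxP-flanked alleles in the neural lineage, was thus carried by both neuron groups and by neither cortex group.

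Ribosomes are made in the nucleolus, where RNA polymerase I transcribes the long precursor of the large ribosomal RNAs. The factor UBTF opens the ribosomal DNA, the TBP-containing complex SL1 (the TAF1A to TAF1D proteins with TBP) marks the promoter, and RRN3 brings the polymerase to it. Box C/D and box H/ACA small nucleolar ribonucleoproteins then methylate and pseudouridylate the precursor, and separate sets of assembly factors build the small and the large ribosomal subunit. PHF6 is a chromatin-associated protein found in the nucleolus and has been tied to ribosomal RNA transcription, which is why these genes were examined. PolyA libraries measure the messenger RNAs of the factors and not ribosomal RNA itself.

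The libraries held between 16858007 and 31157700 counted reads. Phf6 itself was at 178, 151 and 189 CPM (the TMM-scaled count relative to library size) in the control cortices and reached 42.2 to 55.3 CPM in those lacking Phf6. It was at 259, 226 and 256 CPM in the control cultures and 59.2 to 86.6 CPM in the Phf6 lox/Y NesCre T/+ cultures, so the groups did not overlap in either tissue. The deleted allele lacks only some exons, and reads of the others remain in the count. Neuron markers were at 6442 to 8883 CPM in sum in the cortices and at 11964 to 13609 CPM in the cultures, whereas proliferation markers (1657 to 2227 against 437 to 753 CPM), neural progenitor markers (2068 to 2520 against 496 to 809 CPM) and endothelial markers (147 to 320 against 4.80 to 9.94 CPM, with up to 3 of 7 endothelial markers at 0 in a culture) were lower in the cultures. The cultures were therefore enriched for neurons but not free of dividing cells. The Phf6 -/Y cortex replicate 1 of litter 3 stood apart, with dorsal telencephalon markers at 1272 CPM against 1914 to 2316 CPM in the other cortices, and choroid plexus markers ranged from 8.29 to 487 CPM among the cortices. In such mixed tissue, fewer cells of a type and less RNA per cell cannot be told apart.

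**Figure D1:**
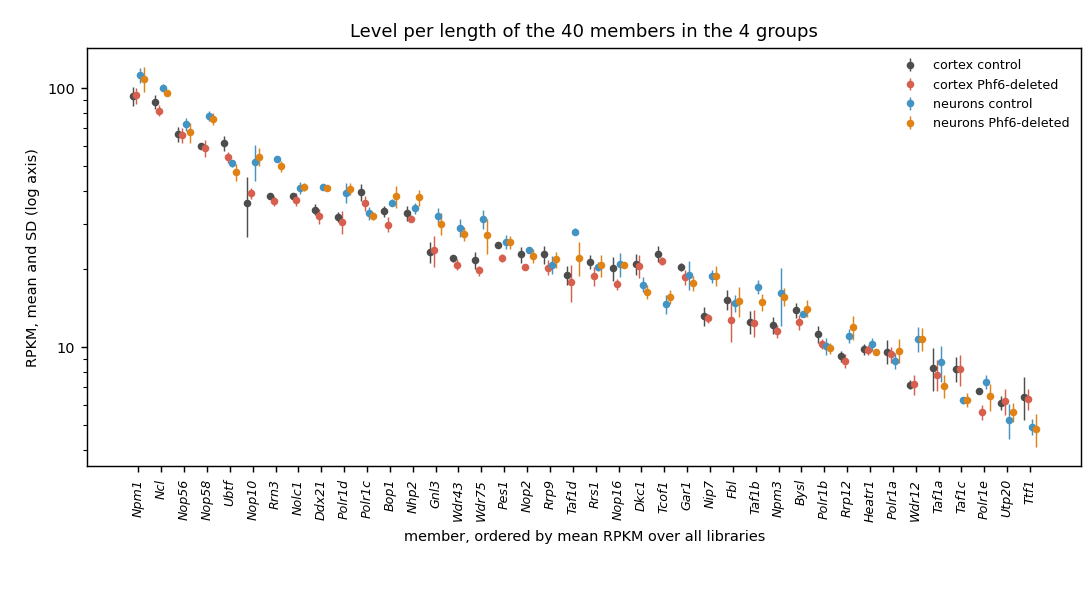
Mean level of each of the 40 genes in the 4 groups, in RPKM (CPM per kilobase of gene length, log axis), ordered by the mean over all 15 libraries; points are group means and bars are SDs over 3 to 5 libraries. Npm1 heads the order at 101 RPKM and Ttf1 closes it at 5.67 RPKM.

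Compared per kilobase of gene length (RPKM), the 40 genes spanned a 17.9-fold range of mean level over the 15 libraries. The highest were the abundant nucleolar chaperones Npm1 (nucleophosmin, 101 RPKM) and Ncl (nucleolin, 90.6 RPKM), followed by Nop56 (67.7 RPKM) and Nop58 (67.6 RPKM), which encode the paired scaffold proteins of box C/D particles. The difference between Nop56 and Nop58 was smaller than their SDs, which were 4.33 and 3.57 RPKM in the control cultures. Among the transcription factors of RNA polymerase I the order was steep. Ubtf lay at 53.2 RPKM and Rrn3 at 43.9 RPKM, whereas the SL1 subunit genes Taf1d (21.2 RPKM), Taf1b (14.0 RPKM), Taf1a (7.92 RPKM) and Taf1c (7.31 RPKM) were lower, and Ttf1, which encodes the terminator-binding factor, was the lowest of all 40 at 5.67 RPKM. Polymerase subunits also differed. Polr1d (35.3 RPKM) and Polr1c (35.1 RPKM), whose products RNA polymerase III shares, were above Polr1b (10.3 RPKM), Polr1a (9.40 RPKM) and Polr1e (6.42 RPKM), which belong to RNA polymerase I alone. The count of a single gene in a single library was never below 200, so all 40 passed the filter on low counts in every comparison. Taf1d, Ncl, Gnl3, Nop56, Nop58, Dkc1 and Wdr43 contain small nucleolar RNA genes within their bounds, Npm3 and Fbl have named pseudogenes, and 10 of the genes (Taf1c, Taf1d, Polr1e, Gnl3, Nop56, Dkc1, Nhp2, Bysl, Wdr12 and Bop1) overlap another protein-coding gene. Polr1a, Polr1d, Heatr1, Taf1c and Taf1d overlap an annotated pseudogene. The levels of all these genes are less certain, because reads may be shared with a neighbour or a copy. The strand setting of the counting, which bears only on overlaps with a gene on the other strand, is not given in the sources used here.

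RefSeq promoter windows on GRCm38.p6 were found for 34 of the 40 genes, and the 250 bases before the annotated start were searched on both strands for a set of short motifs. The E-box CACGTG, bound by Myc-family and other basic helix-loop-helix factors, was present in 2 of the 34 (5.88%), Rrn3 and Nop2, against 7.61% of all protein-coding genes. The GC box GGGCGG was present in 20 (58.8%, against 45.8%), CCAAT in 11 (32.4%, against 39.5%) and TATAAA in 2 (5.88%, against 13.7%), namely Pes1 and Dkc1. The ETS core CCGGAAGT was present in 8 (23.5%, against 4.26%): Taf1a, Taf1c, Ttf1, Polr1c, Gar1, Nhp2, Heatr1 and Nip7. These matches are descriptions of sequence and not of binding. The windows of 6 genes that the results below turn on are printed 5′ to 3′ on the strand of the gene, ending at the base before the start, with any match to these motifs in capitals. Rrn3 carries a pair of E-boxes, Taf1c a CCAAT box, a GC box and an ETS core, Polr1a a CCAAT box, Polr1e a GC box, Nop2 a GC box and an E-box, and Nop10 no match.
Rrn3 (chr16:13780449-13780698, plus strand): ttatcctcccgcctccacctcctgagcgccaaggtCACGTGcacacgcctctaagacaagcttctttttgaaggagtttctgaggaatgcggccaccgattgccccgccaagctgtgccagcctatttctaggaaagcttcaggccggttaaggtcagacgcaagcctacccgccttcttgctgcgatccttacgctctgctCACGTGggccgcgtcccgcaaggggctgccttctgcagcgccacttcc
Taf1c (chr8:119605207-119605456, minus strand): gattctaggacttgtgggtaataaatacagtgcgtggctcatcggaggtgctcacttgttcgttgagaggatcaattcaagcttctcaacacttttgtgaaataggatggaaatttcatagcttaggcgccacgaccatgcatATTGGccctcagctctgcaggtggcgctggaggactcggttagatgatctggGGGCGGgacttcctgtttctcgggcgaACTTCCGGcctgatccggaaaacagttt
Polr1a (chr6:71908803-71909052, plus strand): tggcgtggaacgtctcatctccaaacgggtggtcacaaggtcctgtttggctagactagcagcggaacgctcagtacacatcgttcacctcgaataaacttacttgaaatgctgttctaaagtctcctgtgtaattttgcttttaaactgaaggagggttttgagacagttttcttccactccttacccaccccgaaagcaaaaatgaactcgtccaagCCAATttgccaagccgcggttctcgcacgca
Polr1e (chr4:45018359-45018608, plus strand): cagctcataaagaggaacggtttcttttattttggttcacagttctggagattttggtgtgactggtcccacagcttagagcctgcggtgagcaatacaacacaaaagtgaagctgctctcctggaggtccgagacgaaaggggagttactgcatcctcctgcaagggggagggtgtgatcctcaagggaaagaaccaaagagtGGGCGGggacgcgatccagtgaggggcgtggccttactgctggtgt
Nop2 (chr6:125131633-125131882, plus strand): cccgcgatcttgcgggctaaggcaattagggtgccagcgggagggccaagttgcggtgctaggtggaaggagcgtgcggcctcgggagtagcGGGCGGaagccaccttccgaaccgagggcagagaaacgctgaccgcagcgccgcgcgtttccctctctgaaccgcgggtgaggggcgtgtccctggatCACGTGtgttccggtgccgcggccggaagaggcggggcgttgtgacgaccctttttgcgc
Nop10 (chr2:112261676-112261925, plus strand): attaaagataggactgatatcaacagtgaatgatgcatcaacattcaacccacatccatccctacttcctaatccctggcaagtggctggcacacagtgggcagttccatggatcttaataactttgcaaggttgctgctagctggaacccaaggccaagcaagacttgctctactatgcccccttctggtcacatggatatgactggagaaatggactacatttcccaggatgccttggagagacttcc

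In the E15.5 cortex, loss of Phf6 left the 40 genes close to their control levels, and most of the small differences were downward. No member passed a false discovery rate (FDR) below 0.05 in edgeR quasi-likelihood F-tests that carried litter as a term, with Benjamini-Hochberg adjustment over 14746 genes, of which 57 (0.387%) passed, and none did with DESeq2 or limma. At an unadjusted p below 0.05, 6 of the 40 were lower in Phf6 -/Y samples, against 4.76% of all genes, and 0 were higher, against 5.68%. These 6 were Polr1e, Ubtf, Bop1, Pes1, Nop16 and Nop2. The fitted log2 fold change was below 0 for 36 of the 40 genes, against 7460 of all 14746. Its median was -0.084 against -0.0021 over all genes tested. Other lists leaned the same way in this fit, so the downward lean was not confined to the 40. Below 0 were 34 of 44 further small subunit and 31 of 44 further large subunit assembly genes. So were 10 of 12 proliferation and 9 of 10 neural progenitor markers (median -0.06), but only 4 of 8 further polymerase I subunits. The 95% confidence intervals of all 40 lay between -0.58 (Fbl) and 0.46 (Nop10), so a log2 change of 1 in either direction was outside every interval. The count at an unadjusted p below 0.05 depended on single libraries. It was 1 without control replicate 2 of litter 2, 1 without Phf6 -/Y replicate 2 of litter 2 and 3 without Phf6 -/Y replicate 1 of litter 3, the library with low dorsal telencephalon markers, whereas the median was -0.10 without the latter.

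**Figure D2:**
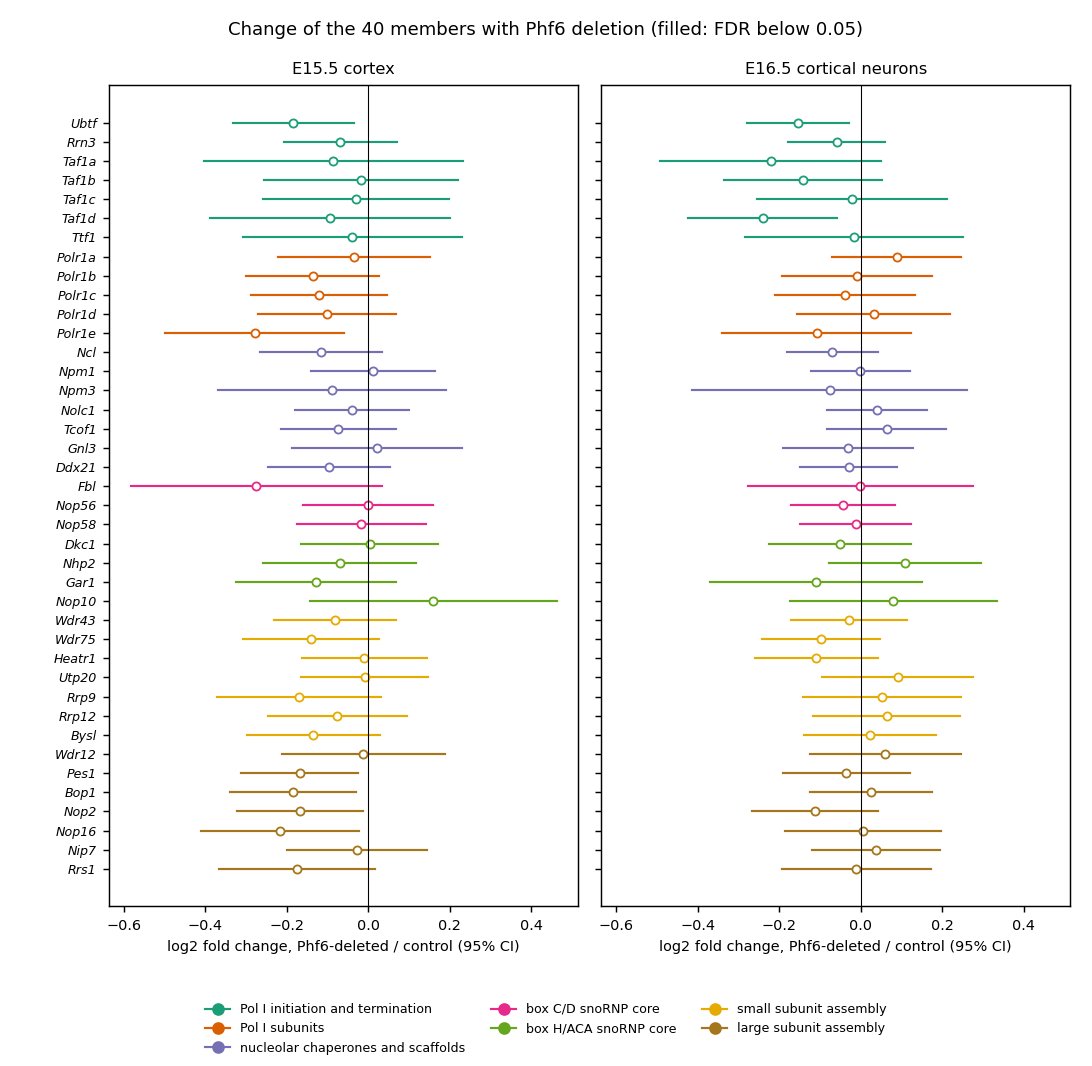
Log2 fold change of the 40 genes, Phf6-deleted against control, with 95% confidence intervals from edgeR's quasi-likelihood fit in E15.5 cortex (left) and E16.5 cortical neurons (right), coloured by role. All points are open because no gene passed an FDR below 0.05, and 36 points in the cortex and 26 in the neurons lie below 0.

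Among the factors that start and end transcription by RNA polymerase I, all 7 fitted fold changes in the cortex were negative, with a median of -0.07. Ubtf was at 287, 317 and 280.0 CPM in the control cortices (litters 3, 2 and 1). In the Phf6 -/Y cortices it was at 259.8 (litter 3), 242 and 266 (litter 2) and 276 and 258 CPM (litter 1). Every Phf6 -/Y library was below every control, and the log2 fold change was -0.18 (SE 0.07, FDR = 0.346 in edgeR's quasi-likelihood F-test, Benjamini-Hochberg adjusted). Rrn3, which links the polymerase to the promoter, was at 136, 136 and 142 CPM in controls and at 129, 133, 141, 126 and 131 CPM in Phf6 -/Y samples. These groups overlapped through Phf6 -/Y replicate 3, and the log2 fold change was -0.07 (SE 0.06, FDR = 0.765). The SL1 genes Taf1a to Taf1d and the terminator factor gene Ttf1 had log2 fold changes from -0.10 (Taf1d) to -0.02 (Taf1b), each smaller than its standard error.

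The 5 polymerase subunit genes were also all below 0 in the cortex, with a median of -0.12. Polr1a, which encodes the largest subunit, was at 64.4, 52.1 and 59.8 CPM in controls and at 52.3, 54.2, 60.8, 61.7 and 57.5 CPM in Phf6 -/Y samples. The groups overlapped throughout, the log2 fold change was -0.04 (SE 0.09, FDR = 0.930), and it became 0.06 without control replicate 1 and 0.07 without Phf6 -/Y replicate 1, both of litter 3. Polr1e, the gene of a subunit that works in initiation and elongation, gave the largest fitted decrease of the 40 genes. It was at 20.2, 19.9 and 19.6 CPM in controls and at 15.4, 17.2, 15.1, 17.2 and 17.7 CPM in Phf6 -/Y samples. All 5 Phf6 -/Y libraries were below the 3 controls, with a log2 fold change of -0.28 (SE 0.10, FDR = 0.332 in the same edgeR test). Polr1b, Polr1c and Polr1d were between -0.14 and -0.10.

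Large subunit assembly genes held 4 of the 6 members at an unadjusted p below 0.05 in the cortex. The fitted fold changes of all 7 were negative, and their median of -0.17 was the lowest of any role. Bop1, a member with Pes1 and Wdr12 of the PeBoW complex that matures the large subunit RNA, was at 86.1, 84.8 and 78.6 CPM in controls. It was at 66.7, 73.3, 80.2, 76.0 and 72.3 CPM in Phf6 -/Y samples, which overlapped the controls through replicate 3 of litter 2, although each lay below the control of its own litter. The log2 fold change was -0.19 (SE 0.07, FDR = 0.367 in edgeR's quasi-likelihood F-test, Benjamini-Hochberg adjusted). Pes1 (-0.17, FDR = 0.379) and the methyltransferase gene Nop2 (-0.17, FDR = 0.428) had every Phf6 -/Y library below every control, and Nop16 was at -0.22 (FDR = 0.413) in the same edgeR fit. The third PeBoW gene, Wdr12, was at -0.01 (SE 0.09).

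No gene of the remaining roles reached an unadjusted p below 0.05 in the cortex. Small subunit assembly genes (Wdr43, Wdr75, Heatr1, Utp20, Rrp9, Rrp12, Bysl) had 7 of 7 negative fold changes with a median of -0.08. The chaperone and scaffold genes had a median of -0.07 with 2 of 7 positive. Npm1, the chaperone that shapes the granular part of the nucleolus, was at 163, 145 and 173 CPM in controls and at 159.8, 159.9, 152, 154 and 181 CPM in Phf6 -/Y samples. These groups overlapped, with a log2 fold change of 0.01 (SE 0.07, FDR = 0.979). Gnl3, which encodes the stem cell nucleolar GTPase nucleostemin, was at 42.1, 41.2 and 48.5 CPM in controls and at 47.8, 44.8, 35.2, 43.9 and 51.3 CPM in Phf6 -/Y samples. The fitted log2 fold change was 0.02 (SE 0.10, FDR = 0.965), and the groups overlapped. Nop10, the smallest protein of the box H/ACA particle, was at 29.9, 17.7 and 27.7 CPM in controls and at 25.7, 27.4, 28.9, 26.6 and 27.9 CPM in Phf6 -/Y samples. Control replicate 2 of litter 2 was low, and the log2 fold change of 0.16 (SE 0.14, FDR = 0.747), the highest of the 40, was -0.10 without it. The box C/D genes Fbl, Nop56 and Nop58 had a median of -0.02 in the cortex, and the box H/ACA genes -0.03. Fbl, which encodes the methyltransferase fibrillarin of the box C/D particle, differed from its partners. It was at 19.2, 17.6 and 16.1 CPM in controls and at 12.4, 12.9, 15.3, 19.1 and 14.3 CPM in Phf6 -/Y samples. The groups overlapped through Phf6 -/Y replicate 4 of litter 1, and the log2 fold change of -0.28 (SE 0.14, FDR = 0.546 in edgeR's quasi-likelihood F-test, Benjamini-Hochberg adjusted) was close to that of Polr1e but had a wider interval.

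**Figure D3:**
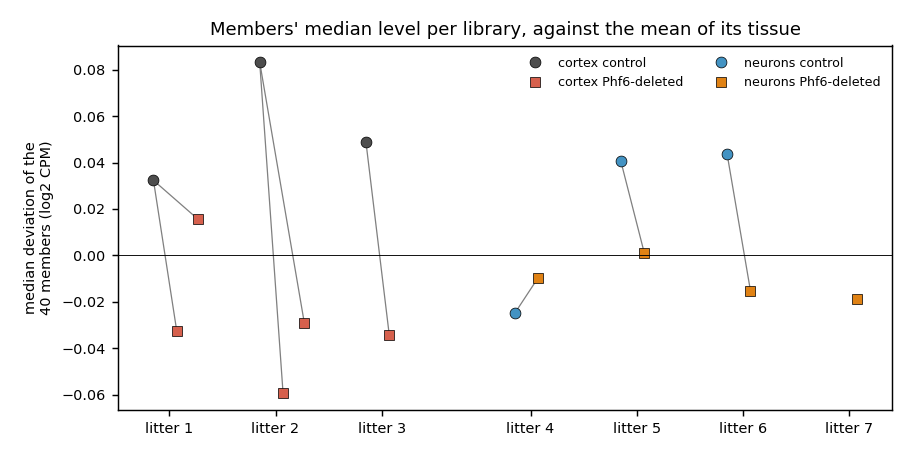
Median over the 40 genes of the log2 deviation of each library from the mean of its tissue, with littermates joined by lines. In the cortex the 3 controls lie between 0.03 and 0.08 and the 5 Phf6 -/Y samples between -0.06 and 0.02, whereas in the neurons the groups overlap.

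Within litters, each Phf6 -/Y cortex was compared with the control from its own litter. Of the 40 genes, 28 were lower in replicate 1 of litter 3, 32 and 31 in replicates 2 and 3 of litter 2, and 28 and 23 in replicates 4 and 5 of litter 1. Over all genes tested, 52.8, 49.0, 49.5, 48.2 and 48.0% were lower in these pairs. The median log2 ratio of the 40 was -0.09, -0.16, -0.13, -0.06 and -0.02, against between -0.02 and 0.01 over all genes tested. All 5 medians were below 0, and that of replicate 5 was the nearest to 0. The pairs of 1 litter share their control. Ubtf, Polr1c, Polr1e, Gar1, Bysl, Pes1, Bop1, Nop2, Nop16 and Rrs1 (10 of 40) were below the littermate control in all 5 pairs, against 9.11% of all genes. Every Phf6 -/Y library was below every control for 4 of the 40 (Ubtf, Polr1e, Pes1 and Nop2), against 2.80% of all genes, and above every control for 0 of the 40, against 2.46%. In sum, the 40 genes were at 3248, 3372 and 3237 CPM in controls and at 3123, 3008, 3054, 3061 and 3202 CPM in Phf6 -/Y samples, without overlap, and Ncl alone made up between 651 and 783 CPM of these sums. No cell type marker passed an FDR below 0.05 for genotype in the cortex in edgeR's test. The lists with the largest median log2 fold changes were those of the choroid plexus (-1.27, 5 of 6 negative), the meninges (0.89, 6 of 6 positive) and the dorsal telencephalon (-0.30, 6 of 6 negative). At an unadjusted p below 0.05, against 4.76% of all genes lower and 5.68% higher, these lists had 0, 0 and 3 genes, the latter lower, and the 12 proliferation markers (median -0.09) had 5 lower and 1 higher. The summed levels of these 4 lists overlapped between the genotypes, at 10.8 to 487 against 8.29 to 343 CPM for choroid plexus, 139 to 437 against 152 to 752 CPM for meninges, 2082 to 2316 against 1272 to 2188 CPM for dorsal telencephalon and 1772 to 2114 against 1657 to 2227 CPM for proliferation. Their part in the differences of the 40 genes was not tested.

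**Figure D4:**
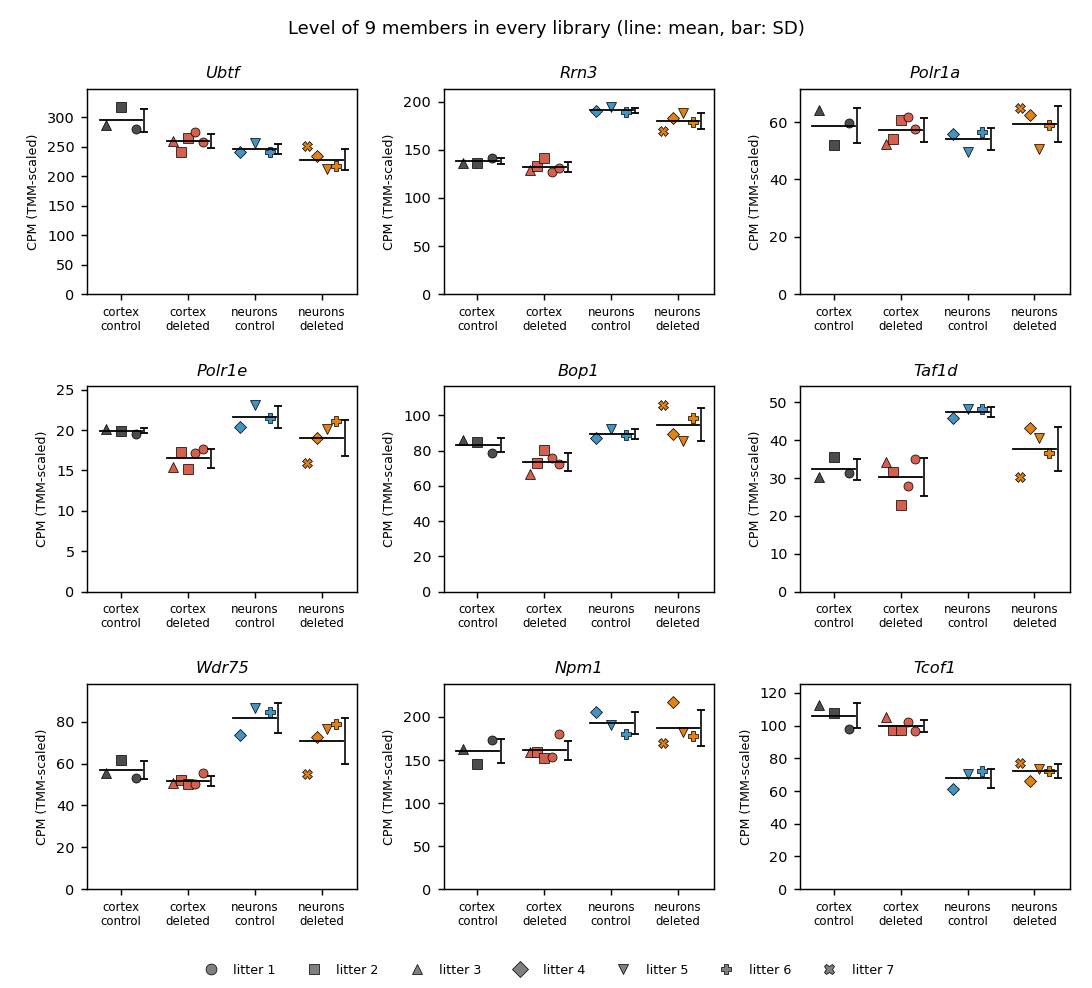
CPM in every library for 9 of the 40 genes, with the litter given by the marker, the group mean by the line and the SD by the bar (3 to 5 libraries a group). Ubtf and Polr1e are lower in all Phf6 -/Y cortices than in all control cortices, Taf1d and Rrn3 are lower in all Phf6-deleted than in all control cultures, and Tcof1 is lower and Rrn3 higher in cultures than in cortices.

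In the E16.5 cortical neurons, deletion of Phf6 likewise left the 40 genes near control levels. None passed an FDR below 0.05 in edgeR quasi-likelihood F-tests that carried a litter term (Benjamini-Hochberg adjustment), against 38 of 13905 genes tested (0.273%), and none did with DESeq2 or limma. At an unadjusted p below 0.05, 2 of the 40 (Taf1d and Ubtf) were lower in Phf6 lox/Y NesCre T/+ cultures, against 4.46% of all genes, and 0 were higher, against 5.86%. That share of lower genes is close to the background. Fold changes were below 0 for 26 of the 40, against 6912 of all 13905, with a median of -0.019 against 0.0010 over all genes. The 95% confidence intervals of the 40 lay between -0.49 (Taf1a) and 0.33 (Nop10). Without control replicate 2, control replicate 3 or Phf6 lox/Y NesCre T/+ replicate 4, the count of lower genes at an unadjusted p below 0.05 was 1.

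The initiation and termination genes were again all below 0 in the neurons, with a median of -0.14, while the medians of the other roles lay between -0.03 and 0.02. Ubtf was at 241, 256 and 242 CPM in the control cultures (litters 4, 5 and 6). It was at 251 (litter 7), 234, 212 and 217 CPM (litters 4, 5 and 6) in the deleted cultures. The groups overlapped through the culture of litter 7, which has no littermate control, and the log2 fold change was -0.15 (SE 0.06, FDR = 0.360 in edgeR's quasi-likelihood F-test, Benjamini-Hochberg adjusted). Taf1d, an SL1 subunit gene, was at 45.9, 48.3 and 48.2 CPM in controls and at 30.1, 43.3, 40.6 and 36.5 CPM in deleted cultures. All deleted cultures were below all controls, the culture of litter 7 being the lowest, with a log2 fold change of -0.24 (SE 0.09, FDR = 0.321). Taf1a was at 17.4, 21.2 and 23.9 CPM in controls and at 14.6, 18.9, 17.1 and 17.1 CPM in deleted cultures. The groups overlapped, and the log2 fold change was -0.22 (SE 0.13, FDR = 0.590). Rrn3 was at 191, 194 and 189 CPM in controls and at 169, 183, 188 and 179 CPM in deleted cultures. Although no deleted culture reached the lowest control, the log2 fold change within litters was -0.06 (SE 0.06, FDR = 0.789).

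Polymerase subunit and assembly genes showed no common direction in the neurons. Polr1a was at 56.0, 49.6 and 56.4 CPM in controls and at 64.8, 62.5, 50.5 and 59.0 CPM in deleted cultures. These groups overlapped, with a log2 fold change of 0.09 (SE 0.07, FDR = 0.752). Nhp2, the box H/ACA protein gene with the highest fitted increase of the 40, was at 32.9, 34.3 and 36.3 CPM in controls and at 40.9, 38.2, 34.5 and 38.5 CPM in deleted cultures. The groups overlapped through the deleted culture of litter 5, and the log2 fold change was 0.11 (SE 0.09, FDR = 0.735). Utp20, which encodes a large scaffold of the small subunit precursor, was at 43.0, 41.4 and 54.3 CPM in controls and at 52.1, 52.7, 43.7 and 50.3 CPM in deleted cultures. Both groups spread over about the same range, and the log2 fold change of 0.09 (SE 0.09, FDR = 0.787) fell to -0.01 without control replicate 1 of litter 4. The large subunit assembly genes that were lowest in the Phf6 -/Y cortex were near 0 here, at 0.03 for Bop1, -0.03 for Pes1 and 0.01 for Nop16, with Nop2 at -0.11 (SE 0.07).

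Each deleted culture of litters 4 to 6 was also set against the control of its litter. Of the 40 genes, 19 were below the control in litter 4, 26 in litter 5 and 27 in litter 6, with median log2 ratios of 0.01, -0.04 and -0.08. Over all genes tested, 45.7, 51.4 and 54.2% were below the control, and these medians were 0.02, -0.01 and -0.02. In all 3 pairs 10 of the 40 were below the control, against 16.1% of all genes, and 3 were above it. The share of all genes above the control in all 3 pairs was not counted, so the count of 3 has no background. Every deleted culture was below every control for Rrn3, Taf1b, Taf1d and Heatr1 (4 of 40, against 3.71% of all genes) and above every control for none (0 of 40, against 3.60%). The summed level of the 40 genes was 3509, 3623 and 3642 CPM in controls and 3442, 3546, 3475 and 3452 CPM in deleted cultures. These sums overlapped through the control of litter 4.

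Whether the genotype effect differed between neurons and cortex was tested as an interaction over all 15 libraries. None of the 40 genes passed an FDR below 0.05 in edgeR's quasi-likelihood F-test (Benjamini-Hochberg), against 2 of 14997 genes (0.0133%), and none reached an unadjusted p below 0.05, against 5.19%. DESeq2 also called none. The difference (neurons minus cortex) was above 0 for 31 of the 40, against 7366 of all 14997, with a median of 0.06. All 7 large subunit assembly genes were above 0, with a median of 0.13, and the smallest p of the 40 was that of Bop1 (difference 0.21, SE 0.11, FDR = 0.955 in the same edgeR test). For Ubtf the difference was 0.02 (SE 0.10, 95% confidence interval -0.18 to 0.23), for Rrn3 0.01 (SE 0.09) and for Polr1a 0.12 (SE 0.12). A different response of these genes in the 2 tissues was therefore not detected, and the interval of Ubtf still allowed a difference as large as the fitted decrease itself.

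Differences between litters were tested in the same fits. In the cortex, the joint edgeR quasi-likelihood F-test of litter, Benjamini-Hochberg adjusted, called 250 genes (1.70%) and 0 of the 40, and 2 of the 40 (Utp20 and Dkc1) reached an unadjusted p below 0.05, against 15.4% of all genes. DESeq2 called none of the 40 for litter in the cortex. Utp20 was at 50.9, 49.0 (litter 3), 53.3, 50.5, 50.9 (litter 2), 57.4, 59.4 and 63.1 CPM (litter 1). The 3 libraries of litter 1 were the highest, whatever the genotype (FDR = 0.194 in the same edgeR test). Dkc1, the gene of the pseudouridine synthase dyskerin, was at 64.4 and 67.0 CPM in litter 3, at 53.4, 60.2 and 54.6 CPM in litter 2 and at 58.8, 55.7 and 51.6 CPM in litter 1 (FDR = 0.305). Litter 3 was the highest for this gene. Gnl3, the next by p, gave an FDR of 0.415.

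In the neurons, the same test called 696 genes (5.01%) and 1 of the 40, Wdr75, and 5 of the 40 (Wdr75, Npm1, Nop56, Wdr12 and Taf1d) reached an unadjusted p below 0.05, against 20.7% of all genes. Wdr75, a small subunit assembly gene, was at 73.6 and 72.7 CPM in litter 4, at 86.7 and 76.6 CPM in litter 5, at 84.7 and 78.7 CPM in litter 6 and at 54.9 CPM in the single culture of litter 7. That culture was the lowest, and the FDR of 0.0298 in edgeR's quasi-likelihood test rose to 0.368 without it. Npm1 was at 206 and 217 CPM in litter 4, at 191 and 182 CPM in litter 5, at 181 and 178 CPM in litter 6 and at 170.3 CPM in litter 7. Litter 4 was the highest in both genotypes (FDR = 0.107 in the same edgeR test). Nop56 was at 129 and 131 CPM in litter 4, 145 and 139.5 CPM in litter 5, 139 and 128 CPM in litter 6 and 112 CPM in litter 7 (FDR = 0.160). The number of the 40 genes called for litter was 0 without control replicate 2 or deleted replicate 1 or 3, and 4 without control replicate 3 or deleted replicate 4.

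More of the 40 genes were called between the cultured neurons and the intact cortex than between genotypes, and the same held for all genes tested. Among controls 20 of the 40 were called, beside 7314 of 14316 genes. Among deleted libraries 25 of the 40 were called, beside 8525 of 14412 genes. Among controls, edgeR's quasi-likelihood F-test (Benjamini-Hochberg FDR below 0.05) called 14 of the 40 higher in neurons (24.7% of 14316 genes tested) and 6 lower (26.4%). Among Phf6-deleted libraries, which are other samples but mostly littermates of the controls, it called 20 higher (28.0% of 14412 genes) and 5 lower (31.1%). Neither comparison carried a litter term, because litters are nested in tissue. Some deleted cortices shared a litter and were counted as separate libraries. The median log2 fold change of the 40 was 0.09 among controls against -0.03 over all genes, and 0.21 against -0.03 among deleted libraries. Of the 20 genes called among controls, 18 were also called among deleted libraries, all in the same direction, and 33 of the 40 had the same sign in both. This agreement was not counted over all genes tested, so it cannot be read as a trait of the 40. Age, culture, NesCre, the germline allele and litter all differed between the tissues and cannot be told apart. When counts were scaled by library totals in place of TMM, the median of all genes shifted by -0.14 among controls and -0.16 among deleted libraries, and the calls became 9 higher and 9 lower, and 12 higher and 10 lower. Relative to the median of all genes, the median of the 40 stayed at 0.12 and 0.24. A change of scaling moves all genes nearly alike, so this value could hardly change. Of the 20 and 25 genes called with TMM, 15 and 17 were still called with library totals, and no called gene changed sign.

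**Figure D5:**
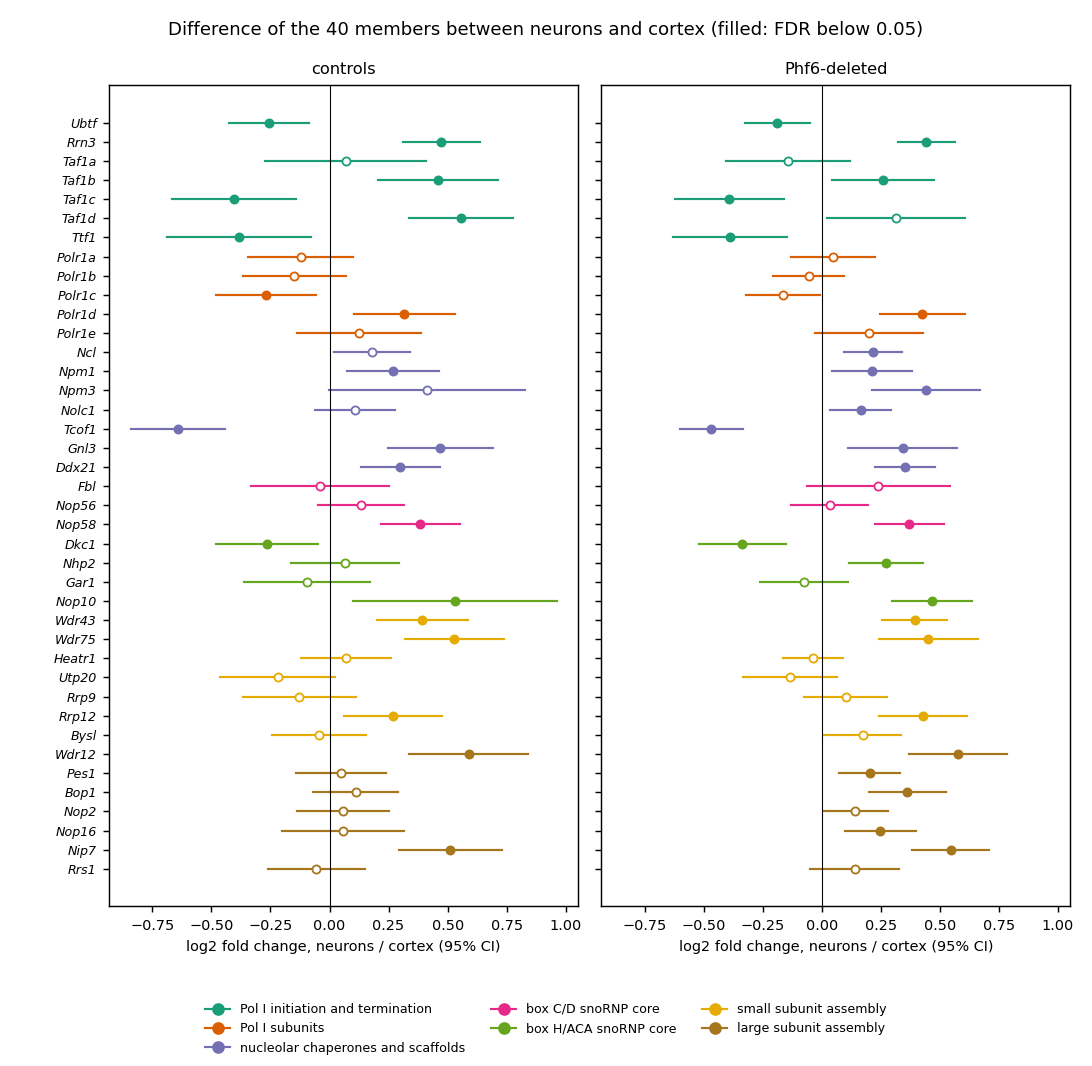
Log2 fold change of the 40 genes, E16.5 cortical neurons against E15.5 cortex, with 95% confidence intervals in controls (left) and in Phf6-deleted libraries (right), coloured by role. Filled points passed an FDR below 0.05 (20 genes among controls and 25 among deleted libraries), and Tcof1, Taf1c, Ttf1, Dkc1 and Ubtf lie below 0 in both panels.

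The transcription factors of RNA polymerase I split in this comparison. Rrn3, at 136 to 142 CPM in control cortices and 189 to 194 CPM in control cultures, was higher in neurons, with log2 fold changes of 0.47 (SE 0.08, FDR = 0.000186) among controls and 0.44 (SE 0.06) among deleted libraries in edgeR's quasi-likelihood test. Ubtf, at 280.0 to 317 CPM in control cortices and 241 to 256 CPM in control cultures, was lower, by -0.26 (SE 0.08, FDR = 0.0143) and -0.19 (SE 0.06, FDR = 0.0210) in the same test. Among deleted libraries Rrn3 stayed apart (126 to 141 against 169 to 188 CPM), and Ubtf overlapped (242 to 276 against 212 to 251 CPM). The SL1 genes went both ways. Taf1d was at 30.3, 35.5 and 31.2 CPM in control cortices and 45.9, 48.3 and 48.2 CPM in control cultures. It was higher among controls, with a log2 fold change of 0.56 (SE 0.10), but at 0.31 (SE 0.14) and an FDR of 0.0612 it did not pass among deleted libraries. Taf1b was higher in both (0.46 and 0.26). Taf1c was at 27.2, 29.7 and 23.8 CPM in control cortices and 20.4, 19.7 and 20.9 CPM in control cultures, and was lower (-0.40 and -0.39). Ttf1 was at 23.1, 32.4 and 24.7 CPM against 19.9, 19.5 and 22.1 CPM and was also lower (-0.38 and -0.39). Among controls neither gene overlapped between the tissues. Among deleted libraries Taf1c stayed apart (23.0 to 31.9 against 18.6 to 21.6 CPM), and Ttf1 overlapped (22.9 to 28.4 against 17.3 to 24.3 CPM). Ubtf, Taf1c and Ttf1 were called in 3, 4 and 2 of the 6 comparisons of controls that left out 1 library, and in each of these 3 genes the call was lost without control cortex replicate 2, a library in which they were high. It was also lost for Ubtf without control culture replicate 1 or 3, for Taf1c without control culture replicate 2 and for Ttf1 without any of the 3 control cultures. Among deleted libraries the call of Ubtf was lost without deleted culture replicate 3 or 4, and Taf1d passed without deleted cortex replicate 1 or 5 or deleted culture replicate 1.

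Polymerase subunits differed among themselves. Polr1d was higher in neurons in both comparisons (0.32 and 0.43), Polr1c was lower among controls only (-0.27, FDR = 0.0338 in edgeR's quasi-likelihood test, called in 1 of 6 comparisons with a library left out, and -0.17 with FDR = 0.0650 among deleted libraries), and Polr1b and Polr1e were called in neither. Polr1a was at -0.12 among controls and 0.05 among deleted libraries, and was called in neither. With library totals these became -0.26, which passed, and -0.11, which did not.

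Of the chaperones and scaffolds, 6 of 7 had a positive fold change in each comparison. Among controls 3 of 7 were called higher in neurons (Npm1 0.27, Gnl3 0.47, Ddx21 0.30), against 24.7% of all genes. Among deleted libraries 6 of 7 were, against 28.0%. Tcof1 was the exception. Treacle, its product, recruits RNA polymerase I and UBTF in the nucleolus and is known for the craniofacial syndrome caused by its loss. Tcof1 was at 112, 108 and 97.8 CPM in control cortices and 61.2, 70.3 and 72.0 CPM in control cultures. In the deleted libraries it was at 105, 97.0, 97.4, 102 and 97.0 CPM in cortices and 76.9, 66.2, 73.6 and 72.3 CPM in cultures. No culture reached any cortex, and the log2 fold changes of -0.64 (SE 0.09, FDR = 8.05e-05) and -0.47 (SE 0.06) were the lowest of the 40 in edgeR's quasi-likelihood test. Both held with every library left out in turn.

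Among the ribonucleoprotein and assembly genes, the called genes were higher in neurons with 1 exception under TMM scaling, Dkc1 (-0.26 and -0.34). Wdr12, of the PeBoW complex, was at 23.4, 23.9 and 25.3 CPM in control cortices and 32.4, 40.5 and 36.0 CPM in control cultures. The ranges were apart, and the log2 fold changes were 0.59 (SE 0.12) and 0.58 (SE 0.10), the highest of the 40 in both comparisons. Its partners Pes1, at 0.05 (SE 0.09), and Bop1, at 0.11 (SE 0.08), were not called among controls, and among deleted libraries both were called higher (0.20 and 0.36). Nop10 was at 29.9, 17.7 and 27.7 CPM against 41.3, 37.1 and 30.1 CPM among controls, and its log2 fold change of 0.53 (SE 0.19, FDR = 0.0425) was called in 2 of 6 comparisons with a library left out, those without control cortex replicate 1 or control culture replicate 3. Among deleted libraries it was 0.47 (SE 0.08) and was called in all 9. Wdr75 (0.53 and 0.45), Wdr43 (0.39 in both), Nip7 (0.51 and 0.55), Nop58 (0.38 and 0.37) and Rrp12 (0.27 and 0.43) were called higher in both. Calls of small changes rested on single libraries. With 1 library left out, Polr1d and Npm1 were called among controls in 4 of 6 comparisons and Dkc1 and Rrp12 in 2 of 6, and among deleted libraries Taf1b was called in 3, Nolc1 in 4 and Npm1 in 5 of 9. The marker sums given above for dividing, progenitor and endothelial cells moved with the tissue as well, and their part in these differences was not tested.

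In the wider pathway, no gene of the lists passed for genotype in either tissue. In the cortex, 0 of 44 further small subunit assembly genes and 0 of 44 further large subunit assembly genes passed an FDR below 0.05 in edgeR's quasi-likelihood test, and their median log2 fold changes were -0.06 and -0.07. Of these, 2 and 6 were lower at an unadjusted p below 0.05, against 4.76% of all genes, and 0 and 1 were higher, against 5.68%. The first share of lower genes is near the background and the second above it. Among them, Eif6, whose product keeps new large subunits from joining, was at -0.25 (FDR = 0.293). The 8 further polymerase I subunits had a median of -0.01, the 10 ribosomal DNA regulators -0.04, the 10 Myc network genes -0.05 and the 22 RNA polymerase III genes -0.04. The 12 small nucleolar RNA host genes had a median of -0.10, with 2 lower and 0 higher at an unadjusted p below 0.05, and summed to 301 to 326 CPM in control and 231 to 342 CPM in Phf6 -/Y cortices, which overlapped. The smallest p in these lists was that of Maf1, the repressor of RNA polymerase III, at -0.24 (SE 0.06, FDR = 0.140). Among 12 p53 targets, which respond to nucleolar stress among other signals, 2 were higher and 1 lower at an unadjusted p below 0.05, against the same 5.68% and 4.76% of all genes, the 2 being Cdkn1a (0.52, FDR = 0.277) and Ccng1 (0.19, FDR = 0.465), and their median was -0.07. In the neurons, the lists had medians between -0.17 (small nucleolar RNA host genes) and 0.08 (p53 targets). Of the 11 host genes tested, 10 were below 0 and 2 were lower at an unadjusted p below 0.05, against 4.46% of all genes, and none was higher. They summed to 319 to 363 CPM in control cultures and 272 to 317 CPM in deleted cultures, without overlap. The smallest p was that of the host gene Gas5, at -0.27 (SE 0.06, FDR = 0.105 in the same test). Of the marker lists, Ttr and Sst passed in the neurons, at 2.84 and 0.92. All 12 proliferation markers (median -0.15) and 8 of 10 neural progenitor markers (median -0.13) were below 0 there. At an unadjusted p below 0.05, 4 and 3 of them were lower, against 4.46% of all genes, and 0 were higher. Of 12 neuron markers (median 0.099), 9 were above 0. Of these, 4 were higher, against 5.86% of all genes, and 0 were lower. The summed levels of these lists overlapped between the genotypes. Their part in the differences of the genes described here was not tested.

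Between tissues the wider lists held single genes with larger changes than any of the 40. Of 12 p53 targets, 10 were called higher in control cultures than in control cortices, against 24.7% of all genes, and 11 among deleted libraries, against 28.0%. They were led among controls by Eda2r (1.75, SE 0.28) and Ccng1 (1.27, SE 0.14). Of the Myc network, Mxd3, a proliferation-linked Max partner, was at -1.91 (SE 0.20), and Mycn was at 0.35 (SE 0.08), both past the FDR threshold. Snhg3, the next lowest, was at -0.98 (SE 0.56, FDR = 0.162) and did not pass the test. Among the further small subunit assembly genes 9 were higher and 4 lower, and among the large subunit ones 14 higher and 3 lower, of 44 in each list, against the 24.7% higher and 26.4% lower of all genes. Nop53, the nucleolar protein gene that acts in both ribosomal assembly and p53 regulation, was at -0.51 (SE 0.09) among controls and -0.24 (SE 0.06) among deleted libraries, and passed in both.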

How the data were processed

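The authors aligned paired-end reads from stranded polyA libraries to mm10 with Rsubread and deposited gene counts from featureCounts with its inbuilt RefSeq annotation, without normalization. The strand setting of the counting is not given in the sources used here. Of 27179 rows, 1029 had no gene identifier and 875 identifiers matched no RefSeq gene. As in the study, 1273 predicted genes, 835 pseudogenes, 35 genes of ribosomal RNA and 4 without a chromosome were left out.

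Counts were filtered (filterByExpr), TMM-scaled and tested gene by gene in R 4.3.3 with robust quasi-likelihood fits of edgeR 4.0.16, adjusted by Benjamini-Hochberg over all genes tested. Litter, given by the labels, was a fixed term in each genotype fit, as in the study. Deviations of littermates from their group means correlated at -0.13 to 0.48 in 5 cortex pairs and 0.15 to 0.35 in 3 culture pairs. Pairs from different litters were at -0.44 to 0.13 (10 cortex pairs) and -0.33 to 0.29 (9 culture pairs), so the ranges overlapped. Alternatives were DESeq2 1.42.0, limma-trend (limma 3.58.1), 2 other scalings, no filter, no litter term and leaving out each library. Printed CPM and RPKM share 1 TMM scaling over the 15 libraries. The labels name litters but not single foetuses, so p-values rest on the spread between these libraries. In the genotype fits it is the spread left after the litter term, and in the tissue fits no litter term was removed.

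The members and lists were chosen with earlier results of these data known. Values in every library are given for Ubtf, Rrn3 and Polr1a, for the 3 members with the smallest p in each direction of a genotype comparison or for a litter effect, and for the 3 largest changes in each direction between control tissues. Fbl, Pes1, Nop2 and Nop16 were named after their values were seen, and of the marker and pathway lists those past the FDR with genotype or the largest between control tissues were named, with a few others chosen after their values were seen. The fits were tested on simulated data.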

Additional observations from a re-analysis of the deposited data

Results flagged for a closer look

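Npm1 was at 180.6 CPM in the Phf6 -/Y cortex replicate 5 of litter 1, against 152 to 159.9 CPM in the other 4 Phf6 -/Y cortices. The gap to its nearest neighbour was 0.731 of the whole range of the group, more than Dixon's test allows for 5 values. It was the 1 group of the 38 examined (named genes in groups of 4 or 5 libraries) that passed this limit, and chance marks about 1 in 20 such groups. The control of the same litter was also the highest of the control cortices for Npm1, at 173 CPM.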

How the results depend on the processing

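No member was called for genotype in either tissue under DESeq2, limma-trend, other scalings, no filter, any library left out, or without the replicate block (litter left out), which left 1 gene of all tested called in each tissue in place of 57 and 38. Without that block the interaction of Rrn3 was -0.030, and it was -0.0062 with library totals. With library totals the calls between tissues became 9 higher in controls (median -0.051) and 12 higher and 10 lower in deleted libraries (median 0.053), and Polr1a turned to -0.11 in deleted libraries. With 1 deleted cortex per litter that median was 0.23. Leaving out each library in turn gave 1 to 7 members lower at an unadjusted p below 0.05 in the cortex, with medians from -0.13 to -0.067, and 1 to 3 lower and 0 to 1 higher in the neurons. In the cortex Polr1a ranged from -0.13 to 0.066, Nop10 from -0.10 to 0.31, Gnl3 from -0.041 to 0.077 and Npm1 from -0.037 to 0.060, and in the neurons Utp20 from -0.0056 to 0.18. The interaction ranged from -0.051 to 0.082 for Ubtf and from -0.046 to 0.055 for Rrn3. Members called for litter in the neurons numbered 0 to 4. Between control tissues, 2 to 5 members were lower and the median was 0.094 to 0.15. The cause of these shifts was not tested. With 3 to 5 libraries a group, SEs of 0.05 to 0.16 on the log2 scale in the genotype fits set the precision of these differences.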
